A study of Mus musculus with 18 samples.

Results

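Reactive astrocyte genes are transcripts that astrocytes raise after injury, inflammation or near amyloid deposits. The 32 genes described here, of 24421 gene symbols counted, were taken from published lists: 4 intermediate filament genes, 9 pan-reactive genes, 5 genes labelled A1, 11 labelled A2 and 3 further genes. All 32 were present in the count tables of both sorted cell types and all 4 groups. The series compared astrocytes and microglia sorted by FACS from whole brains of untreated C57BL/6j mice, 4 wild type (WT) and 5 of the APP-NLGF genotype (APP below), in which the mouse App gene carries knocked-in familial Alzheimer mutations. Each of the 9 mice gave 1 library of either cell type, 18 libraries in all, and every library name carries the tag C3WT. The mice of both genotypes therefore share that tag; the sources used here give neither their ages nor the sorting antibodies. WT replicate 1 was female and WT replicates 2 to 4 male, whereas APP replicate 1 was male and APP replicates 2 to 5 female, so each genotype holds the less frequent sex in 1 mouse only.

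In resting brain, astrocytes build a cytoskeleton of intermediate filaments, and an increase of GFAP, vimentin, nestin and synemin is the classical sign of reactivity. Cytokines that signal through the gp130 and oncostatin M receptors phosphorylate STAT3, which enters the nucleus and raises Gfap and other reactive genes. The A1 and A2 labels come from mice given lipopolysaccharide or made ischaemic and are used here only as names of lists. Several of the listed genes are also made by endothelial cells, pericytes, fibroblasts or microglia, so the abundance of those cells' transcripts is given beside the results.

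The promoters of 4 genes are shown because Gfap is the textbook STAT3 target of the list, because Gfap, Emp1 and Serpina3n rose in libraries of both cell types, and because Steap4 holds the second stringent match found. Vim, Synm, Cd44 and Ptgs2 also rose in libraries of both cell types and are not shown. None of them is among the genes with a match named below. Each sequence is the RefSeq promoter window on GRCm38.p6 (the same build as mm10), from 250 bases before the start of transcription to 50 bases from it on, written 5′ to 3′ on the gene's strand. Capitals mark the palindromic STAT half-site pair TTCNNNGAA, searched once for both strands because it is its own reverse complement. The Gfap window lies at chr11:102897151-102897450 on the minus strand, Emp1 at chr6:135362681-135362980 on the plus strand, Steap4 at chr5:7960222-7960521 on the plus strand and Serpina3n at chr12:104406458-104406757 on the plus strand.
Gfap: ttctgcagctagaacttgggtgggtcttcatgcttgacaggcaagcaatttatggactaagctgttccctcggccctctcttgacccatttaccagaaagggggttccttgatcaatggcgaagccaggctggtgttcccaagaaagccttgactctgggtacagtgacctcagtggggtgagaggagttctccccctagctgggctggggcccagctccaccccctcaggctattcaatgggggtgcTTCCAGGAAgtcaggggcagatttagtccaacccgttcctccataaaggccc
Emp1: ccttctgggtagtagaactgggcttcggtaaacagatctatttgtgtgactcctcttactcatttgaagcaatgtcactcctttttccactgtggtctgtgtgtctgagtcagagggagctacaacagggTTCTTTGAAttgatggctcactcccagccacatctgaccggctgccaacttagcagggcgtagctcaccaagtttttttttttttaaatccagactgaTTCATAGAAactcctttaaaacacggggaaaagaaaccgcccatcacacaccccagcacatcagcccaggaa
Steap4: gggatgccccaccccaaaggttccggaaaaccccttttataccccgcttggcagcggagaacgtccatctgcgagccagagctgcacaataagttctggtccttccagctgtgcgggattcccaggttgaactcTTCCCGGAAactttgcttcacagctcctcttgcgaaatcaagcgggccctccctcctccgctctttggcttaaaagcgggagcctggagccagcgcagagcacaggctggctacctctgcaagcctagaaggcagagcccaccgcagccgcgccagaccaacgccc
Serpina3n: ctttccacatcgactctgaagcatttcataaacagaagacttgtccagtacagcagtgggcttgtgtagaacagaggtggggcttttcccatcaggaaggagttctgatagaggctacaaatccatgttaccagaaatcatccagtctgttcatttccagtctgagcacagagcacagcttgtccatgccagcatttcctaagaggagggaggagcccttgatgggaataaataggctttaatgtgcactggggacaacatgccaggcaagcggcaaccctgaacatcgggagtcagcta
The match in Gfap, TTCCAGGAA, spans positions -2 to 7 around the start, and that in Steap4, TTCCCGGAA, lies at -116 to -108. Emp1 holds 2 matches, TTCTTTGAA at -120 and TTCATAGAA at -22, and the Serpina3n window holds none. Of the 28 listed genes with a window, 5 (Emp1, Gfap, Sphk1, Steap4 and Tgm1) hold TTCNNNGAA, against 9.55% of all 27025 gene symbols and 8.30% of all 32851 windows. The stringent form TTCCNGGAA, which is contained in the looser one, occurs in 2 of the 28 genes, Gfap and Steap4. It occurs in 1.35% of all gene symbols and 1.15% of all windows. A match describes letters only, and binding was not measured.

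Levels are given as CPM, counts scaled to a common library total after TMM scaling within the cell type, so levels set side by side across cell types come from separate scalings. Library totals ran from 8834866 to 22522407 counts, and 29 to 32 of the 32 genes had at least 1 count in a library. Astrocyte markers (12 genes) summed to 28949 to 53439 CPM in the astrocyte libraries, and microglial markers (12 genes) to 35599 to 47556 CPM in the microglia libraries, so both labels matched their defining transcripts. The astrocyte libraries of WT replicates 1 and 4 stood apart, at -69.7 and -55.5 on the first principal component (63.1% of the variance) against -4.44 and -0.05 for WT replicates 2 and 3 and 17.1 to 31.6 for APP. Summed endothelial markers (12 genes, such as Cldn5 and Flt1) were 580 and 497 CPM in WT replicates 1 and 4, 3607 and 2838 CPM in WT replicates 2 and 3 and 2677 to 4198 CPM in APP. C3, the gene in the study's title, rose in APP microglia by 2.89 on the log2 scale (adjusted p = 9.51e-07), and in astrocytes its log2 fold change was 2.21 with an adjusted p of 0.0566 (0.71 without WT replicate 1 and 3.96 without APP replicate 1). App counts were 1.11 log2 units higher in APP astrocytes with an adjusted p of 0.102. This astrocyte difference was 0.50 without WT replicate 1 and 1.69 without APP replicate 1. In APP microglia App rose by 0.43 log2 units (adjusted p = 0.00618). A knock-in that changes the sequence of App is not checked by gene-level counts.

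In sorted astrocytes, 13 of the 28 listed genes with enough counts to be tested rose in APP and none fell, beside 12.1% of all 14957 tested genes that rose and 13.5% that fell (25.6% called in all). A call means a Benjamini-Hochberg adjusted p under 0.05 in edgeR's quasi-likelihood test with sex as a covariate. The value after a log2 fold change is its standard error (SE). Fold changes are adjusted for sex, so they can differ from the ratio of the printed group values. With that term, a fit without WT replicate 1 compares APP replicate 1 alone with male WT mice. Without APP replicate 1, WT replicate 1 alone is compared with female APP mice. The median log2 fold change of the 28 was 1.08, beside 0.01 over all tested genes. It was 0.85 without the sex term and 0.69 without WT replicate 1. Leaving out WT replicates 1 and 4 gave 0.40, and the endothelial marker sum as a covariate gave 0.41. For 16 of the 28 the lowest APP library exceeded the highest WT library, and for none was the order the opposite, beside 9.91% and 11.5% of all genes. By role, 3 of 4 filament genes, 3 of 7 pan-reactive, 6 of 9 A2-labelled and 1 of 3 further genes rose, and none of the 5 A1-labelled genes was called. These counts cover the listed genes only. Published reactive genes outside the list, such as Gbp2, Iigp1 and H2-D1, rose in the same libraries and are given further below. Lcn2, Timp1, Tgm1 and Slc10a6 had too few counts to be tested, at 0 to 0.761 CPM in every astrocyte library. In bulk RNA of sorted cells, a change in the number of cells of a type and a change in RNA per cell cannot be told apart.

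Gfap, the main filament protein of astrocytes (chr11:102887336-102900912, mm10), measured 103, 131, 131 and 114 CPM in WT replicates 1 to 4 and 291, 275, 356, 390 and 215 CPM in APP replicates 1 to 5. The groups did not overlap, and the WT libraries were close to one another. Its log2 fold change was 1.41 ± 0.21 (adjusted p = 0.00522), the smallest adjusted p of the list. Vim, encoding vimentin, a partner of GFAP in the same filaments, measured 116, 345, 328 and 182 CPM in WT and 534, 404, 441, 422 and 384 CPM in APP. WT replicates 1 and 4 were the low ones, and replicates 2 and 3 reached close to the APP libraries. Vim rose by 1.38 ± 0.28 (adjusted p = 0.0121). Synm, encoding synemin, a large filament protein that joins vimentin polymers, measured 43.3, 131, 146 and 77.4 CPM in WT and 213, 180, 197, 207 and 169 CPM in APP, a log2 fold change of 1.49 ± 0.32 (adjusted p = 0.0149). Nes, encoding nestin, the filament protein of neural progenitors that also marks vessels, measured 23, 141, 120 and 25.2 CPM in WT and 137, 142, 129, 185 and 131 CPM in APP. Here WT replicates 2 and 3 lay among the APP libraries, and the group means were 77.4 CPM in WT and 145 CPM in APP. The log2 fold change of 1.59 ± 0.73, adjusted for sex, was not called (adjusted p = 0.128).

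**Figure D1:**
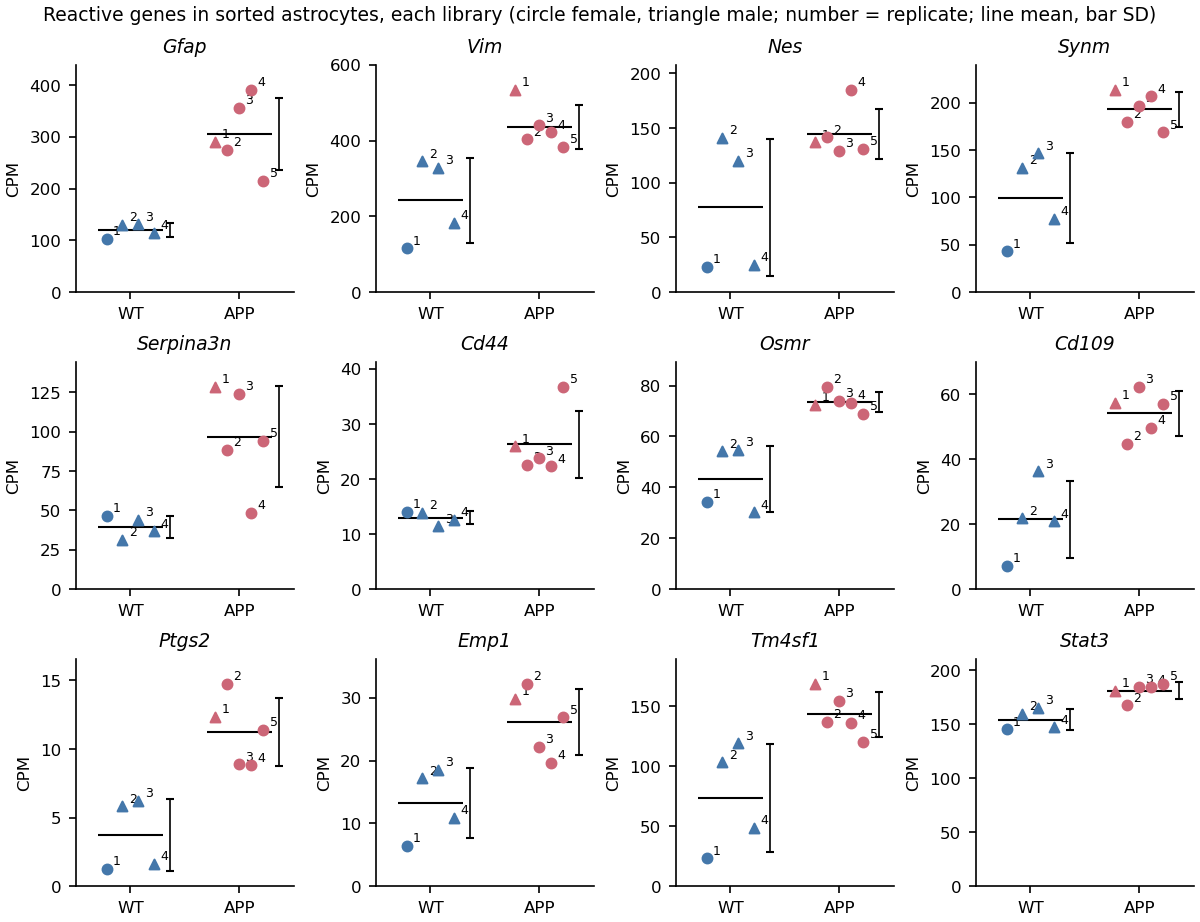
CPM of 12 listed genes in each sorted astrocyte library (y axis from 0, one panel per gene; WT blue, APP red; circles female, triangles male; numbers are replicates, horizontal lines group means, vertical bars SD, n = 4 WT and 5 APP). Gfap and Cd44 show tight WT libraries below all APP libraries, whereas Nes shows WT replicates 2 and 3 among the APP libraries and replicates 1 and 4 near 24 CPM.

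Among the pan-reactive genes, Serpina3n, Cd44 and Osmr rose. Serpina3n, a secreted serine protease inhibitor (chr12:104406729-104414329), measured 46.8, 31.4, 43.9 and 36.6 CPM in WT and 128, 88.5, 124, 48.7 and 94.2 CPM in APP. APP replicate 4 lay just above the highest WT library, and the others at 88.5 CPM or more. The log2 fold change was 1.34 ± 0.30 (adjusted p = 0.0159). Cd44, the hyaluronan receptor, measured 14, 13.9, 11.4 and 12.5 CPM in WT and 25.97, 22.6, 23.8, 22.3 and 36.7 CPM in APP, without overlap, for a log2 fold change of 0.97 ± 0.19 (adjusted p = 0.0116). Osmr, the oncostatin M receptor that pairs with gp130, measured 34.4, 54.1, 54.9 and 30.2 CPM in WT and 68.9 to 79.4 CPM in APP, for 0.87 ± 0.22 (adjusted p = 0.0215). S1pr3, a sphingosine 1-phosphate receptor, and Aspg, an asparaginase, had their APP libraries higher than any WT library but were not called, at 0.92 ± 0.37 (adjusted p = 0.097) and 0.67 ± 0.25 (adjusted p = 0.0737). Hspb1, a small heat shock protein, measured 6.95, 78.9, 34.6 and 7.09 CPM in WT and 33.0 to 65.6 CPM in APP, and Steap4, a metalloreductase, 4.26, 9.83, 11.5 and 2.94 CPM in WT and 7.48 to 14.5 CPM in APP. For both, the APP libraries lay inside or close to the range of WT replicates 2 and 3, and neither was called.

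The 5 A1-labelled genes of the list were not called in astrocytes. Ggta1, the alpha-1,3-galactosyltransferase, measured 31.9 to 41.8 CPM in WT and 38.4 to 56.6 CPM in APP, with overlap and a log2 fold change of 0.21 ± 0.11 (adjusted p = 0.18). Fbln5, an elastic fibre protein, stood at 38.4 to 42.0 against 40.1 to 59.3 CPM, and Amigo2, a cell adhesion protein, at 35.0 to 41.7 against 31.9 to 39.5 CPM. Srgn, the core protein of intracellular proteoglycans of blood and endothelial cells, measured 4.82, 21.6, 15.8 and 3.16 CPM in WT and 16.1 to 25.3 CPM in APP, again with WT replicates 1 and 4 low. Its log2 fold change was 1.37 ± 0.60 (adjusted p = 0.118). Ugt1a7c had 0.125 to 0.262 CPM in WT and 0.428 to 1.19 CPM in APP (adjusted p = 0.0551). It shares exons with other members of the Ugt1a cluster, so which transcript its counts come from is uncertain. The filter asked for 4 libraries at or above 0.51 CPM (before TMM scaling), and Ugt1a7c, B3gnt5 and Clcf1 reached it in 0, 1 and 2 WT libraries, so that these 3 were tested because of their APP libraries.

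Of the A2-labelled genes, Cd109, Ptgs2, Emp1, Tm4sf1, B3gnt5 and Clcf1 rose. Cd109, a membrane protein that binds TGF-beta receptors, measured 7.26, 21.8, 36.3 and 20.8 CPM in WT and 57.3, 44.7, 62.2, 49.5 and 56.99 CPM in APP, for a log2 fold change of 1.96 ± 0.41 (adjusted p = 0.0131). Ptgs2, encoding the inducible cyclooxygenase COX-2, measured 1.25, 5.82, 6.20 and 1.64 CPM in WT and 12.4, 14.7, 8.89, 8.82 and 11.4 CPM in APP, for 2.13 ± 0.53 (adjusted p = 0.0224). Its groups did not overlap, and the WT libraries fell into a lower and a higher pair. Emp1, an epithelial membrane protein, measured 6.45, 17.2, 18.6 and 10.9 CPM in WT and 19.6 to 32.2 CPM in APP, for 1.43 ± 0.31 (adjusted p = 0.0143). Tm4sf1, a tetraspanin-like protein abundant in endothelium, measured 23.2, 103, 119 and 48.6 CPM in WT and 120 to 168 CPM in APP, for 1.72 ± 0.44 (adjusted p = 0.0239). APP replicate 5 and WT replicate 3 were nearly level. B3gnt5, a glycosphingolipid synthase, was low at 0.301 to 0.612 CPM in WT and 0.951 to 2.01 CPM in APP (1.48 ± 0.39, adjusted p = 0.0266). Clcf1, a cytokine of the gp130 family, stood at 0.436 to 0.602 against 0.744 to 1.54 CPM (1.18 ± 0.31, adjusted p = 0.0263). S100a10, a partner of annexin A2, was not called at 0.36 ± 0.12 (adjusted p = 0.0561), with 10.3 to 13.8 CPM in WT and 12.03 to 16.3 CPM in APP. Sphk1, a sphingosine kinase, and Ptx3, a soluble pentraxin, were not called, at 0.88 ± 0.37 (adjusted p = 0.102) and -1.08 ± 0.51 (adjusted p = 0.142).

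Stat3 itself, the transcription factor, measured 145, 160, 165 and 147 CPM in WT and 181, 167, 185, 184 and 187 CPM in APP. The groups did not overlap and the change was small, 0.26 ± 0.08 on the log2 scale (adjusted p = 0.04). S100a6, a calcium-binding protein, and Gap43, the growth cone protein, were not called (0.23 ± 0.14 and -0.21 ± 0.48). Different genes were ranked by CPM per kilobase of exon. The length used was that of all annotated exons of a gene merged, which can exceed that of the transcript expressed, so the ranks are approximate. By this scale Vim was the most abundant listed gene in APP astrocytes (92.1 ± 12.2, SD, n = 5). Next were Gfap (72.4 ± 16.4), Serpina3n (46.9 ± 15.6) and Hspb1 (44.8 ± 12). Serpina3n and Hspb1 lay within 1 SD of each other. In WT astrocytes the order was Vim (51.2 ± 23.6, n = 4), Hspb1 (30.9 ± 32.9), Gfap (28.4 ± 3.3) and Serpina3n (19.2 ± 3.4), and the SDs of Vim and Hspb1 span the values of their neighbours.

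The 2 low WT libraries recurred across the list. In 18 of the 28 tested genes (64.3%), WT replicates 1 and 4 were both below replicates 2 and 3, against 31.7% of all tested genes, and these 18 included 10 of the 13 called genes. Cd44, Serpina3n and B3gnt5 were the called genes without that order: Serpina3n averaged 41.7 CPM in WT replicates 1 and 4 and 37.6 CPM in replicates 2 and 3. Nes (24.1 against 131 CPM), Hspb1 (7.02 against 56.7), Srgn (3.99 against 18.7), Ptgs2 (1.44 against 6.01) and Tm4sf1 (35.9 against 111) had the lower pair far below the higher, with ratios from 0.124 to 0.323. Gfap had a ratio of 0.828 and Stat3 of 0.899. Without WT replicate 1, the only female WT mouse, all remaining WT mice were male. The sex term then left the genotype estimate to APP replicate 1, the only male APP mouse, against WT males. That is in effect the males-only comparison: Gfap was at 1.20, and at 1.21 in males only. Without WT replicate 1, log2 fold changes were 0.89 for Vim, 1.02 for Cd44, 1.76 for Serpina3n and 1.37 for Ptgs2. Cd109 was at 1.10, Tm4sf1 at 0.88, Synm at 0.84, Emp1 at 0.91 and Osmr at 0.62. Without APP replicate 1, the estimate rested on WT replicate 1 against the female APP mice. Clcf1 was then at 0.73, Serpina3n at 0.93, Cd44 at 0.91, B3gnt5 at 1.36 and Stat3 at 0.32. Without WT replicates 1 and 4 together, APP replicate 1 was compared with WT replicates 2 and 3. Vim was then at 0.65, and Nes, Steap4 and Hspb1 were at 0.06, 0.07 and 0.20. With the summed endothelial marker level as a covariate, Gfap (1.17, adjusted p = 0.0436) and Vim (0.76, adjusted p = 0.0156) were called. The 13 genes kept a positive log2 fold change in every alternative in which they could be fitted.

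**Figure D2:**
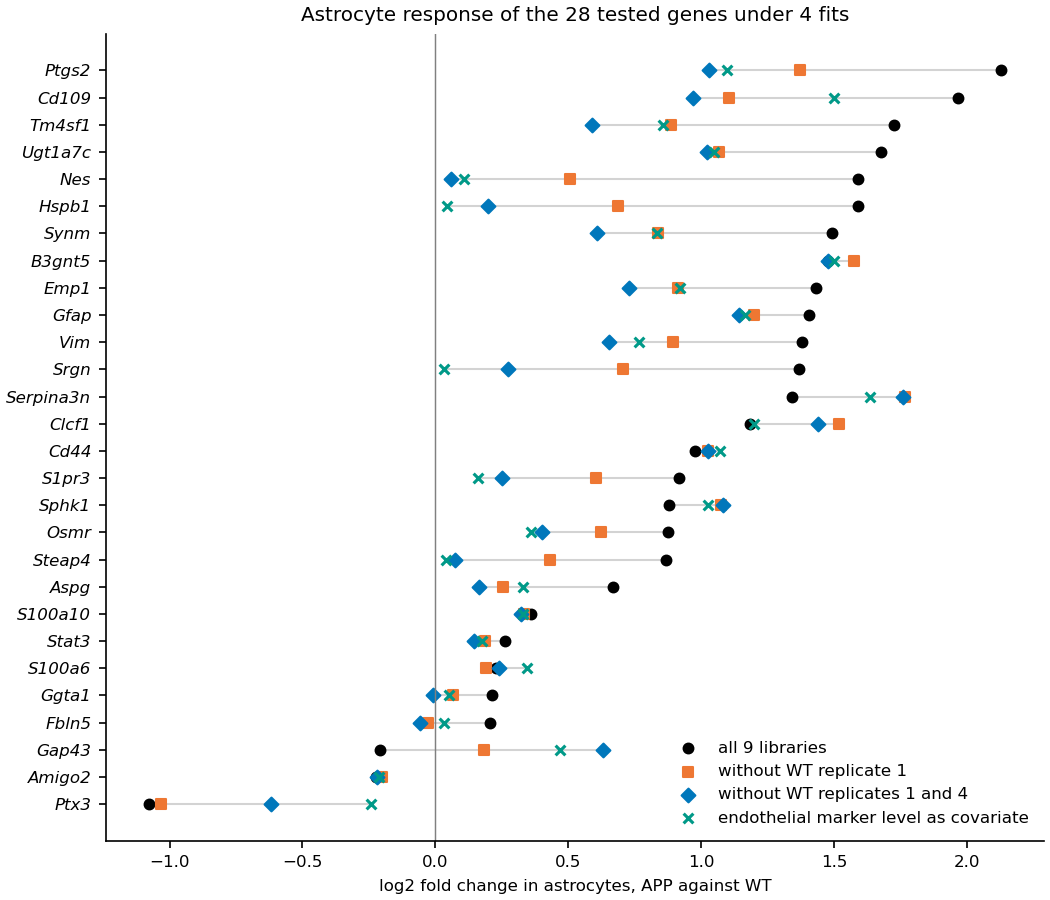
Log2 fold change (x axis) of the 28 tested genes in astrocytes, APP against WT, with all 9 libraries (black circles), without WT replicate 1 (orange squares), without WT replicates 1 and 4 (blue diamonds) and with the endothelial sum added as a covariate (green crosses). Nes, Hspb1, Srgn and Steap4 move close to 0, whereas Gfap, Cd44, Serpina3n, B3gnt5 and Clcf1 stay at or above 0.97 in these 4 fits. B3gnt5 and Clcf1 were tested because of their APP libraries. The fit without APP replicate 1 is not plotted. It gave 1.59 for Gfap, 0.91 for Cd44, 0.93 for Serpina3n, 1.36 for B3gnt5 and 0.73 for Clcf1.

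Transcripts of other cells moved with genotype in the astrocyte libraries. Microglial markers summed to 120 to 151 CPM in WT and 308 to 406 CPM in APP, and 11 of the 12 rose. Mural cell markers (9 genes) ran from 754 to 2159 CPM in WT and 2286 to 2801 CPM in APP, and fibroblast markers (7 genes) from 283 to 803 and 1066 to 1385 CPM; 0 of the 9 mural and all 7 fibroblast markers were called higher. Oligodendrocyte precursor markers (6 genes) ran from 298 to 378 CPM in WT and 457 to 533 CPM in APP, with 3 called higher. In none of these 4 lists did the genotypes overlap (exact permutation p = 0.00794 for each, two-sided, the smallest this design can give), whereas the endothelial sums did (exact permutation p = 0.0794, 0 of 12 called). Ependymal and choroid plexus markers (8 genes) had 6 called higher, with sums of 110 to 1230 and 853 to 1420 CPM that overlapped (exact permutation p = 0.0952). Astrocyte markers were lower, at 37647 to 53439 CPM in WT and 28949 to 34847 CPM in APP, with 8 of 12 called lower (exact permutation p = 0.00794). No list of these had a marker at 0 in all libraries of a group. The part of mural, fibroblast, ependymal, precursor and endothelial RNA in the listed genes' results was not tested beyond the fits given above.

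Microglial RNA can be set against the listed genes directly, because the same mice gave both cell types. This measure was added after the data were seen. The microglial marker sum of an astrocyte library was 0.340% ± 0.0487 (SD, n = 4) of that of the same mouse's microglia library in WT and 0.944% ± 0.135 (n = 5) in APP. That share multiplied by a gene's level in the mouse's microglia gives the level that such RNA would carry. In APP astrocytes this carried level was 0.0817% of the measured level for Gfap, 0.0287% for Serpina3n, 0.916% for Cd44, 0.995% for Stat3 and 4.51% for Ptgs2. For Clcf1 it was 29.9% in APP and 20.3% in WT, and for Ugt1a7c 61.2% and 76.5%.

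Before the knock-in is considered, the listed genes already divided between the cell types in WT mice. Fitted together over all 18 libraries, 28 of 29 tested genes differed between WT microglia and WT astrocytes, 21 higher in astrocytes and 7 higher in microglia, beside 42.3% and 37.9% of all 15550 tested genes (80.1% called in all). The filament genes were all higher in astrocytes, with log2 differences of microglia against astrocytes of -4.34 ± 0.53 for Gfap, -2.65 ± 0.26 for Vim, -2.81 ± 0.51 for Nes and -4.53 ± 0.39 for Synm. Serpina3n (-5.22 ± 0.47), Osmr (-5.00 ± 0.50) and Cd109 (-6.21 ± 0.57) had among the larger differences. Clcf1 (6.28 ± 0.21), Ugt1a7c (7.91 ± 0.29), Tgm1 (3.28 ± 0.43), Srgn (2.52 ± 0.41), Ggta1 (2.16 ± 0.11), Ptgs2 (1.51 ± 0.44) and Stat3 (0.54 ± 0.08) were higher in microglia. Cd44 did not differ past the threshold (0.14 ± 0.27, adjusted p = 0.639). Thus 3 of the 5 A1-labelled genes and 3 of the 10 tested A2-labelled genes were more abundant in WT microglia than in WT astrocytes.

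In sorted microglia, 22 of the 32 genes could be tested, and 9 rose and 3 fell in APP, beside 19.1% of 13116 tested genes that rose and 19.2% that fell (38.3% called in all). The genes that rose were Gfap, Vim, Nes, Synm, Cd44, Serpina3n, Srgn, Ptgs2 and Emp1, and those that fell were Ggta1, Tgm1 and S100a10. The median log2 fold change of the 22 was 0.98, beside 0.01 over all tested genes. It was 0.52 without WT replicate 1, 0.30 without WT replicates 1 and 4, 0.48 without the sex term and 0.09 with the endothelial covariate. Libraries of the genotypes did not overlap for 6 genes with APP above and 3 with APP below, beside 19.8% and 19.2% of all genes. Lcn2, Steap4, Timp1, Aspg, Ptx3, Sphk1, Cd109, Slc10a6, B3gnt5 and Gap43 were not tested, at 0 to 0.885 CPM in every microglia library. S1pr3, Hspb1, Osmr, Serpina3n, Amigo2, Emp1 and Tm4sf1 were tested because of their APP libraries, with 2 or 3 WT libraries at the filter's level, and S100a6 because of its WT libraries.

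Ggta1 (chr2:35400179-35463231) was the most abundant listed gene in WT microglia per kilobase of exon (32.2 ± 1.8 CPM per kilobase, SD, n = 4). It measured 148, 148, 146 and 164 CPM in WT microglia and 37.7, 42.6, 44.9, 33.9 and 40.98 CPM in APP microglia. The groups were far apart and each was tight. It fell by 1.94 on the log2 scale (SE 0.10, adjusted p = 1.22e-07). Ggta1 stayed called in each of the 20 alternatives, at -2.02 without WT replicate 1 and -1.80 with the endothelial covariate. Tgm1, a transglutaminase, measured 3.25, 3.38, 3.03 and 2.86 CPM in WT and 0.532 to 1.36 CPM in APP and fell by 1.54 (SE 0.34, adjusted p = 0.00398). S100a10 measured 2.17, 3.78, 4.76 and 4.47 CPM in WT and 1.01 to 1.92 CPM in APP and fell by 0.90 (SE 0.30, adjusted p = 0.0355). Border macrophage markers (6 genes, such as Mrc1 and Cd163) fell in the same libraries, from 415 to 445 CPM in WT to 80.7 to 165 CPM in APP (exact permutation p = 0.00794), and 5 of the 6 were called lower. Their part in the fall of Ggta1, Tgm1 and S100a10 was not tested.

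Ptgs2 (chr1:150100031-150108227) measured 6.82, 6.76, 8.65 and 8.4 CPM in WT microglia and 42.1, 49.1, 34.9, 79.2 and 73.6 CPM in APP microglia, a log2 fold change of 2.71 ± 0.30 (adjusted p = 3.25e-05). Every APP library was at least 4 times the highest WT library. Srgn measured 45.1, 40.4, 51.4 and 51.6 CPM in WT and 75.3, 96.1, 82.7, 93.3 and 104 CPM in APP (0.86 ± 0.13, adjusted p = 0.000281). It was the most abundant listed gene per kilobase of exon in APP microglia, at 41.1 ± 5.1 CPM per kilobase (SD, n = 5). Cd44 measured 9.53, 8.04, 20.005 and 13.8 CPM in WT and 23.99, 22.8, 22.8, 26.8 and 33.6 CPM in APP (1.11 ± 0.29, adjusted p = 0.0102). Stat3, at 181 to 207 CPM in WT and 175 to 201 CPM in APP, Clcf1, at 27.2 to 35.95 and 26.1 to 37.5 CPM, and Ugt1a7c, at 39.7 to 57.1 and 45.6 to 55.3 CPM, were not called. Their log2 fold changes were 0.02 ± 0.08, -0.04 ± 0.14 and 0.00 ± 0.12.

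**Figure D3:**
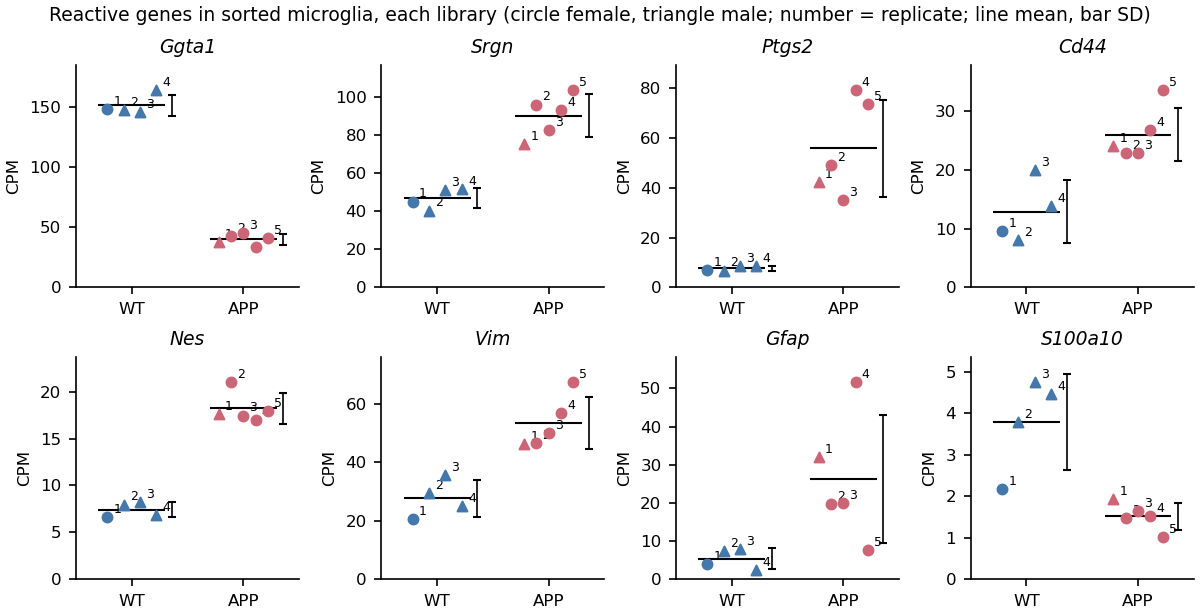
CPM of 8 listed genes in each sorted microglia library (y axis from 0, one panel per gene; WT blue, APP red; circles female, triangles male; numbers are replicates, horizontal lines group means, vertical bars SD, n = 4 WT and 5 APP). Ggta1 drops from at least 146 CPM to at most 44.9 CPM, and Ptgs2 and Srgn rise without overlap.

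The filament genes were called higher in the microglia libraries as well. Nes measured 6.6, 7.96, 8.22 and 6.88 CPM in WT and 17.6, 21.1, 17.5, 16.96 and 17.98 CPM in APP (1.33 ± 0.14, adjusted p = 2.06e-05). Its log2 fold change was 1.20 without WT replicate 1. Vim measured 20.6, 29.5, 35.5 and 25.1 CPM in WT and 46.3 to 67.5 CPM in APP (1.01 ± 0.20, adjusted p = 0.00198). Gfap measured 3.90, 7.40, 7.89 and 2.32 CPM in WT and 32.1, 19.7, 19.9, 51.8 and 7.69 CPM in APP (2.54 ± 0.60, adjusted p = 0.00563). APP replicate 5 lay within the WT range for Gfap. Synm stood at 1.30 to 7.24 CPM in WT (mean 3.79) and 3.81 to 7.94 CPM in APP (mean 5.25), with overlap. Its log2 fold change, adjusted for sex, was 1.18 ± 0.42 (adjusted p = 0.0453). Serpina3n was low at 0.433 to 1.37 CPM in WT and 1.40 to 4.24 CPM in APP (1.96 ± 0.53, adjusted p = 0.0119), and Emp1 at 0.325 to 1.51 and 0.71 to 2.59 CPM (1.55 ± 0.46, adjusted p = 0.0202). The tested genes that were not called included S1pr3, at 0.866, 8.04, 6.92 and 0.983 CPM in WT and 4.61 to 7.12 CPM in APP, and Osmr, at 0.108, 3.06, 1.95 and 0.268 CPM in WT and 0.828 to 2.41 CPM in APP. Tm4sf1 measured 0.325, 2.65, 3.24 and 0.0893 CPM in WT and 1.24 to 3.21 CPM in APP. In all 3 genes WT replicates 1 and 4, the same mice as in the astrocyte libraries, were the low ones, and their endothelial marker sums were 23 and 21.6 CPM against 51.1 and 59.1 CPM in WT replicates 2 and 3. Hspb1, Fbln5, Amigo2 and S100a6 were not called either, at adjusted p from 0.101 for Amigo2 to 0.517 for Hspb1.

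Astrocyte markers in the microglia libraries summed to 741 to 2093 CPM in WT and 569 to 2039 CPM in APP (exact permutation p = 0.571), and none of the 12 was called. As a share of the same mouse's astrocyte library this was 3.14% ± 1.85 (SD, n = 4) in WT and 3.44% ± 1.73 (n = 5) in APP. The level carried by that share reached 73.2% of the measured Gfap level in WT microglia and 42.9% in APP microglia. For Vim it was 33.0% and 28.5%, and for Nes 44.2% and 28.9%. For Synm (98.1% and 130%), Serpina3n (122% and 106%), Osmr (114% and 139%) and Tm4sf1 (182% and 188%) the carried level matched or exceeded the measured one. For Ggta1 (0.785% and 4.23%), Srgn (1.01% and 0.846%), Ptgs2 (1.97% and 0.666%) and Cd44 (3.16% and 3.28%) it was small. Endothelial markers in these libraries were 21.6 to 59.1 CPM in WT and 119 to 174 CPM in APP (exact permutation p = 0.00794), so that this covariate nearly coincides with genotype. Oligodendrocyte precursor markers were 6.93 to 41 CPM in WT and 119 to 191 CPM in APP, and neutrophil and monocyte markers 28.8 to 38.7 and 12.9 to 17.8 CPM (exact permutation p = 0.00794 for each). The part of these in the listed genes' results was not tested. With the endothelial sum in the fit Ggta1 alone stayed called (-1.80, adjusted p = 0.00401), and Ptgs2 and Nes stood at 2.34 (adjusted p = 0.151) and 0.96 (adjusted p = 0.178). Without WT replicate 1, log2 fold changes were -2.02 for Ggta1, 1.20 for Nes, 2.41 for Ptgs2, 0.66 for Srgn and 2.46 for Gfap. They compare APP replicate 1 alone with the male WT mice.

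**Figure D4:**
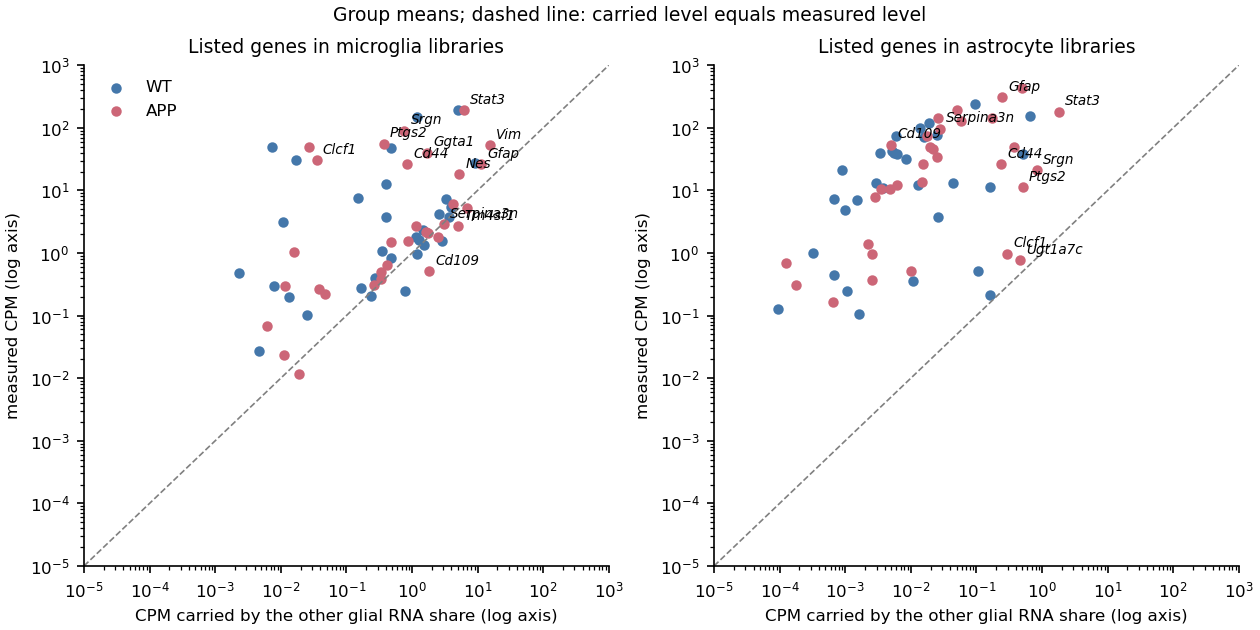
Measured group mean CPM (y axis, log scale) of the listed genes against the mean CPM carried by RNA of the other glial type (x axis, log scale), in microglia libraries (left) and astrocyte libraries (right), WT blue and APP red; values of 0 are left out and names stand beside APP points. On the left Serpina3n, Tm4sf1 and Cd109 lie on or below the dashed line of equal levels, and Ggta1, Srgn, Ptgs2 and Clcf1 lie far above it; on the right Clcf1 and Ugt1a7c lie closest to it.

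The response of microglia minus that of astrocytes was tested as an interaction term. It was called for 6 of 29 tested genes, 1 in the direction of microglia (Amigo2) and 5 the other way, beside 12.5% and 8.91% of all 15550 tested genes (21.4% called in all). Ggta1 differed by -2.10 ± 0.16 (adjusted p = 3.28e-07), with a fall in microglia and overlapping genotypes in astrocytes. S100a10 differed by -1.22 ± 0.26 (adjusted p = 0.00321) and Clcf1 by -1.23 ± 0.31 (adjusted p = 0.011). With the mouse as a block, since both libraries of a number come from 1 animal, these 3 stayed called (adjusted p = 0.018 for Clcf1 and 0.0229 for S100a10). Without APP replicate 1, Clcf1 was at -0.61 (adjusted p = 0.423) and S100a10 at -1.04 (adjusted p = 0.0667), and Ggta1 stayed called at -2.25. Amigo2 (1.14 ± 0.39, adjusted p = 0.0464), Ugt1a7c (-1.54 ± 0.45, adjusted p = 0.0228) and S100a6 (-1.24 ± 0.42, adjusted p = 0.0471) had adjusted p of 0.0975, 0.0767 and 0.106 with the block. For Gfap the difference was 1.16 ± 0.73 (adjusted p = 0.299), for Serpina3n 0.56 ± 0.69 (adjusted p = 0.628), for Ptgs2 0.76 ± 0.65 (adjusted p = 0.469) and for Vim -0.31 ± 0.40 (adjusted p = 0.636). These errors leave room for differences of 1 log2 unit or more, and the test had less power than those within a cell type.

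**Figure D5:**
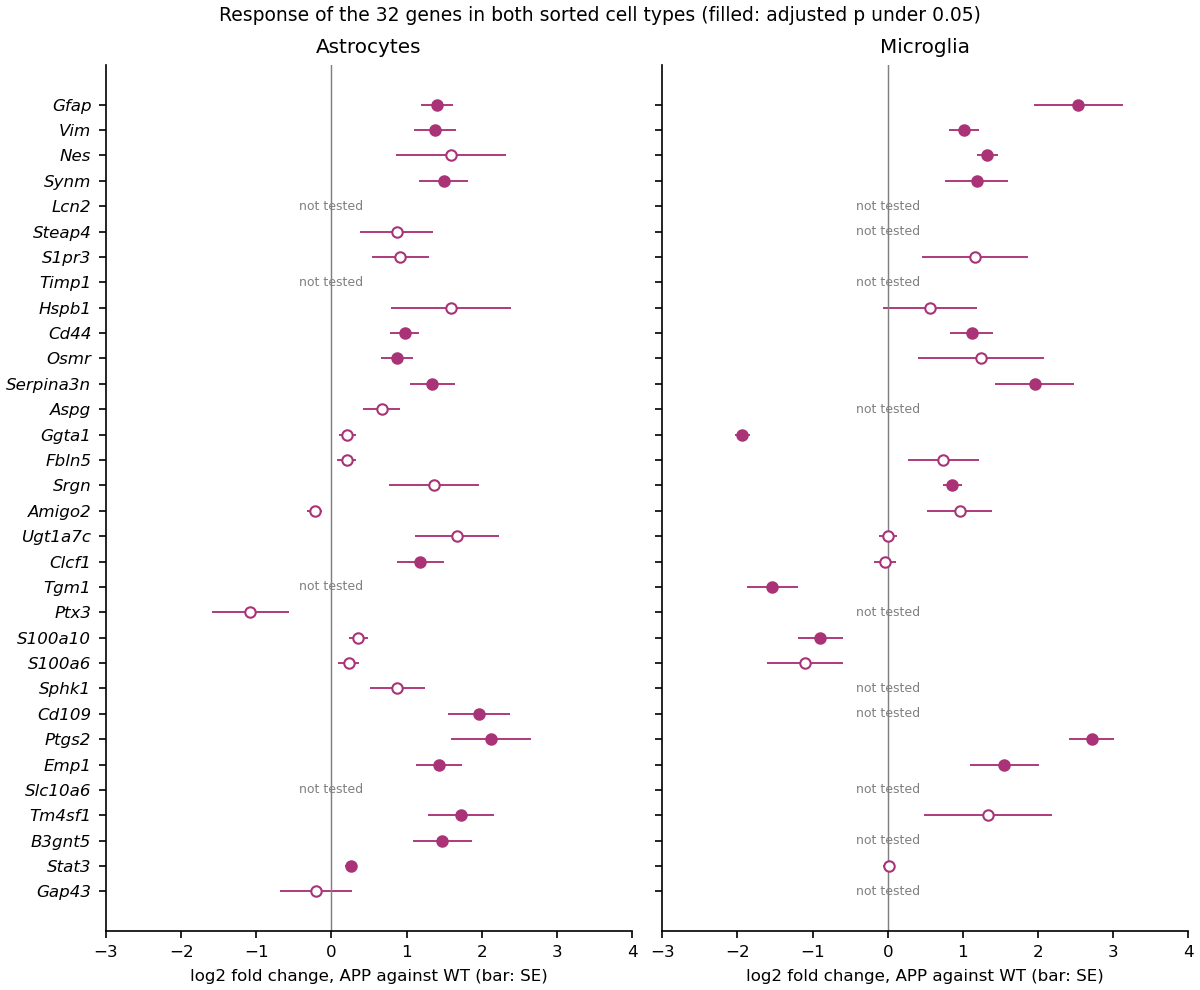
Log2 fold change of APP against WT (x axis, bars SE) for the 32 genes in astrocytes (left) and microglia (right); filled symbols have an adjusted p under 0.05. The filament genes are right of 0 in both panels, and Ggta1, Tgm1 and S100a10 are filled and left of 0 in microglia; Tgm1 was not tested in astrocytes.

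Other genes of the same programmes were counted from lists assembled with earlier results known. Their counts stand beside 12.1% of all tested genes that rose and 13.5% that fell in astrocytes, and 19.1% and 19.2% in microglia. Of 10 further published reactive genes, 9 rose in astrocytes and 8 in microglia. In astrocytes they included Cd14, the lipopolysaccharide co-receptor (2.44 ± 0.34, adjusted p = 0.0039), the interferon-induced GTPases Iigp1 (2.37 ± 0.42, adjusted p = 0.00891) and Gbp2 (1.80 ± 0.36, adjusted p = 0.012), and the MHC class I gene H2-D1 (1.50 ± 0.30, adjusted p = 0.0123). Of the same 10 genes, 6 were called higher in WT microglia than in WT astrocytes and 2 lower. Microglial markers had a median log2 fold change of 2.62 in the astrocyte libraries. The level carried by microglial RNA was not calculated for the genes of these lists. Its part in their astrocyte results was not tested. In microglia H2-D1 rose by 2.04 ± 0.09 (adjusted p = 4.28e-08) and the chemokine Cxcl10 by 2.30 ± 0.28 (adjusted p = 5.58e-05). Of 21 tested genes of gp130 and STAT3 signalling, 7 rose and 3 fell in astrocytes, with a median of 0.36. Il6st, which encodes gp130, rose by 0.62 ± 0.12 (adjusted p = 0.0102), while Ptpn2, a phosphatase that dephosphorylates STAT proteins, fell by 0.48 (SE 0.09, adjusted p = 0.0104). In microglia 6 of 21 rose and 7 fell, with a median of -0.11: Osm, the ligand of the oncostatin M receptor, rose by 1.98 ± 0.17 (adjusted p = 5.21e-06), and Lifr and Il6ra, receptor chains for LIF and IL-6, fell by 1.02 and 0.88 (SE 0.08 for both, adjusted p = 2.08e-06 and 7.59e-06).

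Among 13 tested filament partners and linkers, 3 rose and 1 fell in astrocytes, near the 25.6% of all genes called there. Plec, encoding plectin, which joins filaments to other structures, rose by 0.73 ± 0.14 (adjusted p = 0.0104) and Msn, encoding moesin, by 1.16 ± 0.36 (adjusted p = 0.0427), whereas Ezr, encoding ezrin of the fine astrocyte processes, fell by 0.65 (SE 0.13, adjusted p = 0.0135). In microglia 4 of 12 rose and 2 fell, with the formin Inf2 at 2.91 ± 0.25 (adjusted p = 4.52e-06) and the nuclear lamina gene Lmnb1 at 1.42 ± 0.15 (adjusted p = 1.89e-05). Of 19 tested genes of plaque-associated signals to astrocytes, 4 rose and 4 fell in astrocytes, with a median of 0.11. Sox9, an astrocyte transcription factor, fell by 0.76 (SE 0.14, adjusted p = 0.00975), as did Fgfr3, a fibroblast growth factor receptor (by 0.87, SE 0.17, adjusted p = 0.0116). In microglia 9 of 20 rose and 2 fell, and the cytokines Tnf (1.99 ± 0.15, adjusted p = 1.34e-06) and Il1b (2.28 ± 0.22, adjusted p = 1.21e-05) were among those that rose.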

How the data were processed

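Gene counts of 18 libraries (9 mice, astrocytes and microglia tabulated separately) were used as raw counts deposited by the authors, in tables marked as without outliers; which libraries had been left out is not given. The authors also deposited log2 normalised values, used in 1 alternative only. Per the submitters' processing notes, reads were handled with STAR 2.7.3a, Trimmomatic 0.39, FastQC 0.11.8 and SAMtools 1.9, the build was mm10, and limma 3.46.0 and edgeR 3.32.1 are named. The sources used here name no counting tool, annotation or strand setting, so genes that overlap on opposite strands cannot be separated.

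Counts were fitted with edgeR 4.0.16 in R 4.3.3 (filterByExpr with a minimum count of 10 and total of 15, TMM, quasi-likelihood F-test, Benjamini-Hochberg over all genes tested), with genotype and sex as terms, per cell type. The interaction and the WT contrast used 1 fit of all 18 libraries with cell type by sex. SE was the log2 fold change divided by the square root of F. Marker sums were compared by two-sided exact permutation. Fits were tested on simulated data. Alternatives used DESeq2 1.42.0, limma 3.58.1, other filters, 1 sex, left-out libraries, an endothelial covariate and replicate blocks.

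No pair of replicate libraries was identical, and library totals limit precision for genes under about 1 CPM. Replicates are separate mice. Astrocyte and microglia libraries of a number come from the same mouse per the library names, and correlations of their deviations were 0.0579 to 0.334; replicate numbers do not pair WT with APP mice. The 32 genes, all of which are named in the text, and all lists were chosen with earlier results of these data known; from each other list the called genes with the smallest adjusted p at 1 CPM or more were eligible to be named, up to 4 per comparison, and 1 eligible gene is not reported here. Promoters were taken from RefSeq windows, and gene positions from GENCODE on the same build; 4 listed genes had no window.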

Additional observations from a re-analysis of the deposited data

Results flagged for a closer look

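Among 100 groups of 4 or 5 libraries of tested genes, 7 held a library whose distance from its nearest neighbour exceeded Dixon's 95% critical value, and among 44 groups of marker sums 3 did; chance gives about 1 in 20. In APP astrocytes these were the highest libraries of Nes (replicate 4, 185 CPM), S1pr3 (replicate 5, 160 CPM) and Cd44 (replicate 5, 36.7 CPM). In microglia they were the highest APP library of Nes (replicate 2, 21.1 CPM), the highest WT library of Ggta1 (replicate 4, 164 CPM), the lowest WT library of Amigo2 (replicate 1, 0.866 CPM) and the lowest APP library of Tm4sf1 (replicate 5, 1.24 CPM). Except for Tm4sf1, the distant library lay on the side away from the other genotype. The marker sums were those of oligodendrocytes (4045 CPM) and oligodendrocyte precursors (533 CPM) in the astrocyte library of APP replicate 4, and of neutrophils and monocytes (17.8 CPM) in the microglia library of APP replicate 4. APP replicate 4 was also the lowest APP astrocyte library for Serpina3n, at 48.7 CPM.

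The APP response differed between the cell types, by the interaction test, for Amigo2 (1.14 log2 units, microglia minus astrocytes), Clcf1 (-1.23), Ggta1 (-2.10), S100a10 (-1.22), S100a6 (-1.24) and Ugt1a7c (-1.54). These were 6 of 29 tested listed genes, beside 21.4% of all 15550 tested genes, so the listed genes were called about as often as all genes. With the mouse as a block, Amigo2, S100a6 and Ugt1a7c were no longer called (adjusted p = 0.0975, 0.106 and 0.0767). Clcf1 and Ugt1a7c were below 2 CPM in every astrocyte library, and Amigo2, S100a6 and S100a10 below 5 CPM in every microglia library.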

How the results depend on the processing

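In astrocytes, 13 listed genes were called; with males only 0 were called (edgeR, 7 at an unadjusted p under 0.05), without WT replicates 1 and 4 together 1, and with the endothelial covariate 2. Leaving out 1 library at a time gave 0 to 14, the 0 without WT replicate 1. Over all genes, 3836 calls became 34 without WT replicate 1, 0 in males, 142 without both WT libraries, 461 with the covariate and 2113 with limma voom. In microglia, 12 listed calls became 8 with a filter of 50 counts in 4 libraries (12 genes tested), 5 in males, 4 without WT replicates 1 and 4, 1 with the endothelial covariate, and 4 to 12 leaving out 1 library. The lowest of these was without WT replicate 1, and without APP replicate 1 it was 7. Over all genes, 5022 became 2641 without WT replicate 1, 2112 in males, 2330 without WT replicates 1 and 4 and 455 with the covariate. Synm in microglia reversed to -0.80 with the endothelial covariate (adjusted p = 0.669); the cause was not tested. The 6 interaction calls became 3 with the mouse as a block, 3 without WT replicates 1 and 4, and 3 to 7 leaving out 1 mouse, with 3 both without WT replicate 1 and without APP replicate 1. Over all genes 3328 became 855 without WT replicate 1 and 922 without both. DESeq2 size factors gave 1820 higher and 2101 lower, against 1943 and 1385. In WT, 24 to 28 listed genes differed between cell types under all alternatives, beside 62.9% to 81.8% of all tested genes. DESeq2 called 18 of 28 listed genes in astrocytes, beside 34.4% of all tested genes, against 25.6% in the main fit.

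Without the sex term, 12 listed genes were called in astrocytes, of 2793 in all (18.7%), and 9 of the 13 main calls stayed. In microglia that fit called 10, of 5924 in all (45.2%). A fit with the replicate number as a block called 9 listed genes in astrocytes, of 1907 in all, and 10 in microglia. However, WT and APP mice share only a number (correlations -0.289 to 0.111 in astrocytes). Leaving out libraries leaves fewer samples, and with 1 sex an arm of 1 mouse is assumed to vary like the other. Fits with the sex term and without WT replicate 1 rest on APP replicate 1 alone, as with males only. Without APP replicate 1 they rest on WT replicate 1 alone, as with females only. The counts of calls from these fits are therefore not separate checks. Depth limits genes below about 1 CPM.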
